A study of Homo sapiens with 6 samples.

Results

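The genes described here are 9 homeobox transcription factor genes that lay out the regions of the embryonic forebrain: PAX6, EMX1, EMX2, OTX1, LHX2, LHX9, SIX3, NKX2-1 and GSX2. They were taken by gene symbol from a table of 59151 genes, and all 9 were found. No forkhead gene is among them. The 6 libraries held total RNA, depleted of ribosomal RNA, of day 26 forebrain neuron progenitor cells grown from the established human embryonic stem line H9. The labels call the same cells progenitors in one field and neurons in another. There were 2 libraries of cells with a scrambled hairpin (labelled wild type), 2 with shRNA1 and 2 with shRNA2, hairpins aimed at circRTN4(2,3), which is a circular product of RTN4. The purpose given for these libraries was to learn the function of this circular RNA. All groups share the 1 cell line. How the hairpins were delivered is not given in the sources used here, nor is the origin of the replicates. The p-values therefore cover only how far these libraries spread, and that spread may be technical.

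Homeobox genes encode proteins that hold DNA with a homeodomain, a fold that in many of them recognises short sequences with a TAAT core. In the early forebrain they are switched on in overlapping fields. PAX6, EMX1, EMX2 and LHX2 mark the pallium, the dorsal part that becomes cortex, while GSX2 and NKX2-1 mark the ganglionic eminences below it, the source of inhibitory neurons. SIX3 marks the most rostral neural plate, OTX1 the forebrain and midbrain, and LHX9 the dorsal diencephalon and medial wall of the hemisphere. Secreted signals from the cortical hem and roof plate (Wnt and BMP proteins) and from the ventral midline (SHH) set the borders of these fields.

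The homeodomain core was looked for as TAATTA, which reads the same on both strands, in the 250 bases before each RefSeq start (GRCh38.p14) of 7 of the 9 genes. EMX1 and SIX3 had no entry. Of 17 such windows 2 held it, against 4.35% of 35116 promoters of the same length. The windows are not separate genes, since 9 belong to starts of PAX6 and 2 each to LHX9 and NKX2-1. The EMX2 window overlaps 2 exons in GENCODE v29. TAATCC, searched on both strands and sharing its first 4 letters with TAATTA, was in 0 of 17 windows against 5.62% of all. The stretch of EMX2 that holds the core is shown because many, but not all, homeodomain proteins read such sequences. The core is in capitals, and the stretch has 30 bases. The EMX2 stretch lies at chr10:117542704-117542733 on the plus strand, with the core starting 30 bases before the EMX2 start.
EMX2: tgatccccgcacTAATTAggctcatgaact
The match is a description of the letters only.

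Library totals behind the FPKM values (fragments scaled to the length of the gene and the size of the library) were 46634855 reads for scramble replicate 1 and 77187298 to 83629504 for the other 5 libraries. The scramble replicates were less alike than those of the hairpins, with a median SD on the log2 scale of 0.109 against 0.036 for shRNA1 and 0.045 for shRNA2. RTN4, the host gene, stood at 38.5 to 40.3 FPKM in scramble and 31.2 to 34.7 FPKM in the hairpin libraries; reads of the linear and the circular RNA cannot be told apart. SOX2, a neural progenitor factor, was at 28.6 to 32.7 FPKM over all 6 libraries. VIM, another progenitor marker, was at 54.6 and 60.3 FPKM in scramble and 42.8 to 48.0 FPKM with the hairpins. Of 10 progenitor markers, 3 were lower with the hairpins without overlap and 0 higher, against 12.6% and 5.87% of tested genes. DCX, a marker of young neurons, was at 118 and 112 FPKM in scramble, 120 and 120 under shRNA1 and 94.9 and 96.4 under shRNA2. Of 22 posterior and spinal factors, 21 had a mean under 1 FPKM.

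Among the 9 genes, LHX2 and SIX3 were the highest per length and EMX1 the lowest. In scramble the means were 12.4 ± 0.727 FPKM for LHX2, 12 ± 1.15 for SIX3, 7.85 ± 0.531 for GSX2, 7.11 ± 0.352 for EMX2, 3.24 ± 0.103 for PAX6 and 1.91 ± 0.16 for OTX1 (SD, n = 2 each). NKX2-1 (0.387 ± 0.101), LHX9 (0.256 ± 0.0193) and EMX1 (0.135 ± 0.0251) were below 1 FPKM in all libraries. LHX2 and SIX3 overlapped in their ranges, while the other neighbours in this order did not overlap in scramble. The order was the same with the hairpins, except that SIX3 stood above LHX2 with shRNA1. The length by which PAX6 is divided is 20812 bases in GENCODE v29, against 5516 for EMX1, and PAX6 had the most reads of the 9 genes, 3216 to 5088 per library. Behind the other values stood 383 to 756 reads for OTX1, 118 to 196 for LHX9, 47 to 162 for NKX2-1 and 30 to 65 for EMX1.

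**Figure D1:**
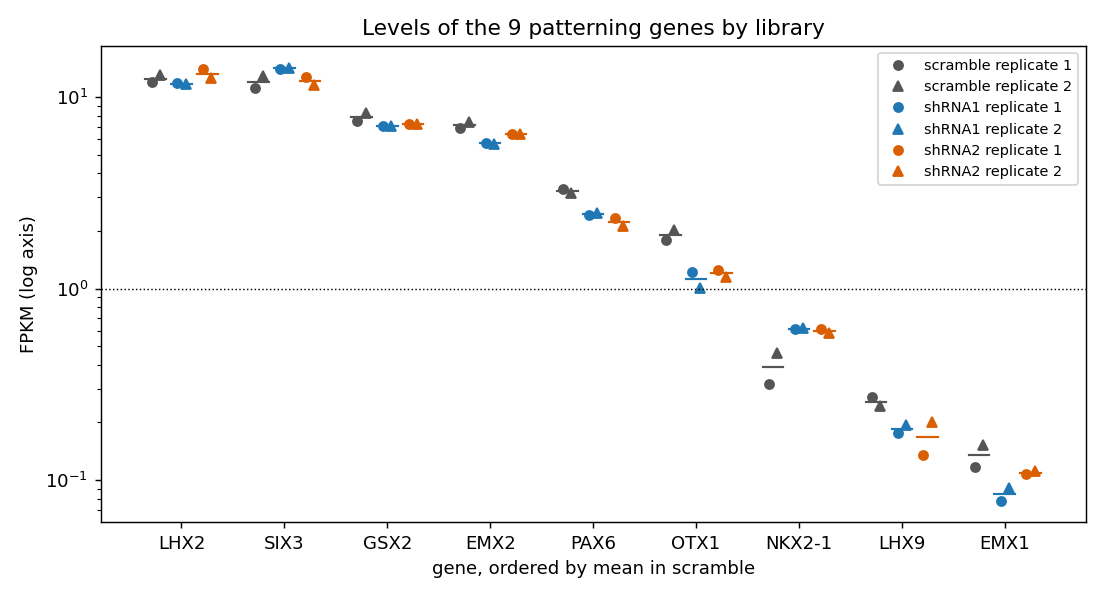
FPKM of the 9 genes in each library (log axis), genes ordered by their mean in scramble; circles are replicate 1, triangles replicate 2, short lines group means, and the dotted line is the filter at 1 FPKM. PAX6, OTX1, EMX2, GSX2, LHX9 and EMX1 lie lower in all 4 hairpin libraries than in both scramble libraries, and NKX2-1 lies higher.

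In all 4 hairpin libraries PAX6 and OTX1 had values below both scramble libraries, while those of LHX2 and SIX3 overlapped scramble. PAX6 was at 72.3% and OTX1 at 60.6% of scramble in the mean of the hairpin libraries, EMX2 at 85.4%, GSX2 at 90.9%, LHX2 at 100.2% and SIX3 at 109%. Of the 6 genes above a filter of 1 FPKM on the mean, 0 passed the threshold in any of the 4 comparisons (limma on log2(FPKM + 1), adjusted p under 0.05 by Benjamini-Hochberg over 18162 tested genes), where 0.0826% of all genes passed in the knockdown. In a test on read numbers recovered from the FPKM values (voom), chosen after the data were seen, PAX6 and OTX1 passed. The comparisons of each hairpin and of the mean of both with scramble share the same scramble libraries.

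PAX6, a paired-box and homeobox factor that keeps cortical progenitors in their dorsal identity, lies on chromosome 11 at 31789026 to 31817961. Per library, PAX6 measured 3.31 and 3.17 FPKM in scramble, against 2.41 and 2.49 under shRNA1 and 2.33 and 2.13 under shRNA2. Both hairpins gave values below both scramble libraries, and the groups did not overlap. On the log2(FPKM + 1) scale, which understates changes of low genes, the knockdown (mean of both hairpins) differed from scramble by -0.34 ± 0.053 (SE; adjusted p = 0.115), shRNA1 by -0.30 ± 0.061 (adjusted p = 0.322) and shRNA2 by -0.39 ± 0.061 (adjusted p = 0.0756). With voom on reads the knockdown difference was -0.47 ± 0.059 (adjusted p = 0.0103), that with shRNA2 -0.54 ± 0.068 (adjusted p = 0.00679) and that with shRNA1 -0.40 ± 0.068 (adjusted p = 0.0629). PAX6 also passed in the knockdown and shRNA2 comparisons when protein-coding genes were fitted alone with limma (adjusted p = 0.0398 and 0.022). With library weights, limma on FPKM gave an adjusted p of 0.553 for the knockdown and voom on reads one of 0.0167.

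OTX1, an orthodenticle-type factor of the forebrain and midbrain, lies on chromosome 2 at 63049735 to 63057831. It stood at 1.80 and 2.03 FPKM in scramble, against 1.22 and 1.01 under shRNA1 and 1.25 and 1.15 under shRNA2. The scramble and hairpin libraries did not overlap, and the hairpins overlapped each other. The log2(FPKM + 1) difference was -0.43 ± 0.072 (SE) for the knockdown (limma adjusted p = 0.132), -0.46 ± 0.083 for shRNA1 (adjusted p = 0.3) and -0.40 ± 0.083 for shRNA2 (adjusted p = 0.114). On reads it was -0.74 ± 0.106 for the knockdown (voom adjusted p = 0.0182), -0.79 ± 0.125 for shRNA1 (adjusted p = 0.0492) and -0.68 ± 0.123 for shRNA2 (adjusted p = 0.0271). Fitted among protein-coding genes alone, OTX1 passed in the knockdown and shRNA2 comparisons (limma adjusted p = 0.0398 and 0.0385). With library weights its adjusted p for the knockdown was 0.647 with limma on FPKM and 0.0489 with voom on reads. OTX2, the paralog with a wider role in the forebrain and midbrain, was at 11.2 and 11.8 FPKM in scramble, against 11 and 10.8 under shRNA1 and 14.1 and 14.7 under shRNA2. In the mean of both hairpins OTX2 did not share the direction of OTX1 (0.12, limma adjusted p = 0.351). The hairpins differed in sign, with -0.07 for shRNA1 (limma adjusted p = 0.806) and 0.30 for shRNA2 (adjusted p = 0.0846). On reads OTX2 passed with shRNA2 (0.32, voom adjusted p = 0.0368) and for shRNA2 against shRNA1 (0.40, adjusted p = 0.0201).

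EMX2, the empty spiracles-type factor of the medial and caudal cortex, lies on chromosome 10 at 117542746 to 117549546. Its values were 6.86 and 7.36 FPKM in scramble, against 5.78 and 5.69 under shRNA1 and 6.39 and 6.44 under shRNA2. All 4 hairpin libraries were below both scramble libraries, and the shRNA1 libraries were the lowest. The knockdown difference was -0.20 ± 0.047 (SE, limma adjusted p = 0.201; voom -0.23, adjusted p = 0.137). The difference between the hairpins, shRNA2 minus shRNA1, was 0.14 with a 95% interval of 0.0021 to 0.28 (limma adjusted p = 0.308). Its paralog EMX1, a marker of the cortical primordium on chromosome 2 at 72916189 to 72934891, was barely detected. EMX1 stood at 0.117 and 0.152 FPKM in scramble, against 0.0782 and 0.0907 under shRNA1 and 0.107 and 0.111 under shRNA2, on 30 to 65 reads. It was below the filter, and on reads its knockdown difference was -0.52 ± 0.201 (SE, voom adjusted p = 0.284).

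The LIM-homeobox pair differed in level. LHX2, which keeps cortical progenitors from turning into hem, lies on chromosome 9 at 124011768 to 124033301. It was at 11.9 and 13.0 FPKM in scramble, against 11.8 and 11.7 under shRNA1 and 13.9 and 12.5 under shRNA2. These groups overlapped. The knockdown difference was 0.001, with a 95% interval of -0.16 to 0.16 (limma adjusted p = 0.997). Its sign turned with the setting, for example to -0.054 without scramble replicate 1. LHX9 lies on chromosome 1 at 197912464 to 197935478. It was at 0.270 and 0.243 FPKM in scramble, against 0.177 and 0.193 under shRNA1 and 0.135 and 0.201 under shRNA2. All hairpin libraries were below both scramble libraries. On reads LHX9 differed by -0.54 ± 0.169 (SE, voom adjusted p = 0.192).

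SIX3, a factor of the rostral forebrain and eye field, lies on chromosome 2 at 44941702 to 44946071. It was at 11.2 and 12.8 FPKM in scramble, against 14.0 and 14.2 under shRNA1 and 12.7 and 11.5 under shRNA2. Only the shRNA1 libraries lay above both scramble libraries. The difference from scramble was 0.22 ± 0.082 (SE) for shRNA1 (limma adjusted p = 0.534) and 0.01 ± 0.082 for shRNA2 (adjusted p = 0.954). The difference between the hairpins, -0.21 ± 0.082, did not pass (limma adjusted p = 0.31; voom adjusted p = 0.188). Without scramble replicate 1 the shRNA2 value was -0.079.

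Of the ventral pair, GSX2, a factor of the lateral ganglionic eminence on chromosome 4 at 54100163 to 54102498, was 7.47 and 8.22 FPKM in scramble. The shRNA1 libraries had 7.05 and 7.06 FPKM, and those of shRNA2 7.21 and 7.22. The hairpin libraries were close together and below both scramble libraries, by -0.12 ± 0.051 (SE, limma adjusted p = 0.399). NKX2-1, a factor of the medial ganglionic eminence and hypothalamus on chromosome 14 at 36516397 to 36520232, was the only gene of the 9 for which all hairpin libraries were higher than both scramble libraries. NKX2-1 stood at 0.316 and 0.459 FPKM in scramble, against 0.612 and 0.623 under shRNA1 and 0.612 and 0.588 under shRNA2. That is 157% of scramble in the mean of the hairpins. The scramble replicates differed by more than the hairpin libraries did. On reads the difference was 0.62 ± 0.172 (SE, voom adjusted p = 0.145), so it did not pass.

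**Figure D2:**
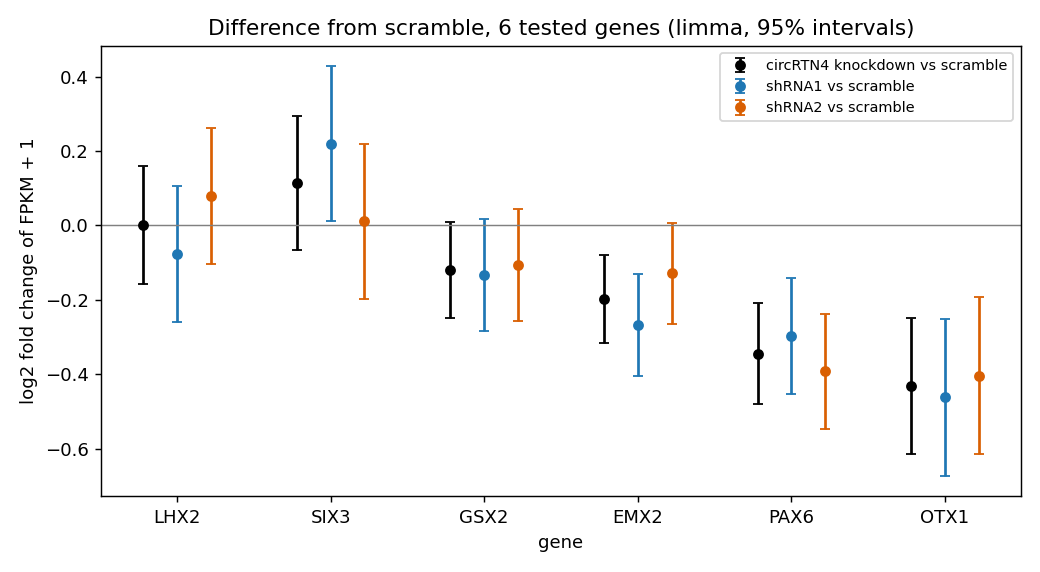
Log2 fold change of FPKM + 1 against scramble for the 6 tested genes; black points are the mean of both hairpins, blue shRNA1 and orange shRNA2, with 95% intervals from limma before adjustment for 18162 tests. The intervals of PAX6 and OTX1 lie below 0 in each comparison and those of LHX2 span 0.

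As a group, 4 of the 6 tested genes had negative knockdown differences, with a median of -0.16, beside 63.1% of all tested genes and a median of -0.03. By the threshold, 0 of 6 passed with limma in the knockdown, shRNA1, shRNA2 and shRNA2 against shRNA1 comparisons, where 0.0826%, 0.0330%, 0.628% and 0% of all genes did. At an unadjusted p under 0.05 there were 3, 4, 2 and 2 of the 6 genes, against 13.8%, 8.97%, 19.2% and 16.1% of all. With voom on reads 2 of 9 genes passed in the knockdown, 1 with shRNA1, 2 with shRNA2 and 0 between the hairpins, where 1.93%, 0.533%, 4.06% and 3.10% of genes did. The 2 in the knockdown, PAX6 and OTX1, were lower. Hairpin and scramble libraries did not overlap for 4 of the 6 tested genes, all lower, against 12.6% of tested genes that were lower in this way and 5.87% that were higher. Of the 3 genes below the filter, 2 were lower and 1 higher without overlap, against 7.28% lower and 9.82% higher among 18842 genes with a mean of 0.1 to 1 FPKM. These counts depend on scramble. With 1 scramble library left, the spread came from the hairpin libraries alone. The voom difference of PAX6 in the knockdown was then -0.44 (without scramble replicate 1) or -0.50 (without scramble replicate 2).

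Genes that overlap the 9 genes in GENCODE v29 can share their reads, since the strand setting of the counting is not given in the sources used here. EMX2OS, on the strand opposite to EMX2 with 2625 bases in common, was at 3.63 and 3.71 FPKM in scramble, against 2.95 and 2.89 under shRNA1 and 3.34 and 3.37 under shRNA2. This is the order of EMX2, with a knockdown difference of -0.18 (limma adjusted p = 0.215). The bases in common are of whole gene spans, introns included, and EMX2OS has 8824 exon bases. Reads from the shared stretch cannot be assigned to EMX2 or EMX2OS here. ELP4, a subunit of the Elongator complex whose gene runs opposite to PAX6 with 5550 bases in common, was at 1.58 and 1.33 FPKM in scramble and 1.17 to 1.24 FPKM in the hairpin libraries (-0.14, limma adjusted p = 0.422). PAUPAR, a long noncoding RNA opposite to PAX6, was at 0.0856 and 0.115 FPKM in scramble and 0.0324 to 0.0673 FPKM with the hairpins. NKX2-1-AS1 was at 0.0927 and 0.112 FPKM in scramble and 0.0987 to 0.211 FPKM with the hairpins, which overlapped. SFTA3 does not overlap NKX2-1 in GENCODE v29, while RefSeq places it at 36473288 to 36519556 on chromosome 14, across most of NKX2-1. SFTA3 was at 0.055 and 0.071 FPKM in scramble and 0.124 to 0.175 FPKM with the hairpins, higher with no overlap of the groups. Further genes that overlap EMX1, LHX2, NKX2-1 and GSX2 in GENCODE v29 were not analysed here. SIX3-AS1, at 0.926 to 1.49 FPKM over all libraries, showed no such separation (-0.01, limma adjusted p = 0.97).

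**Figure D3:**
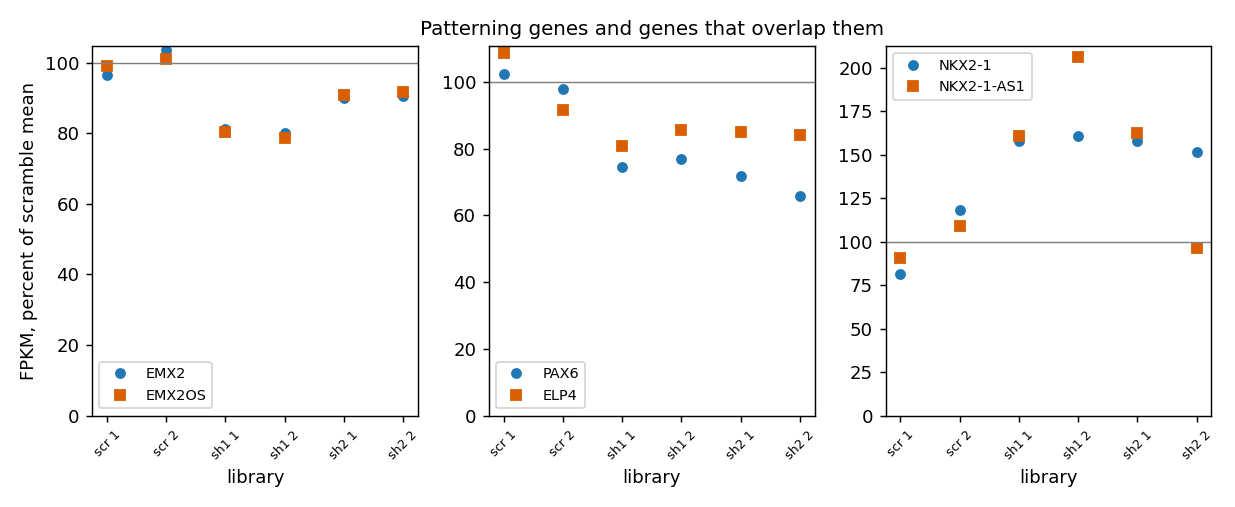
FPKM per library as a percent of the scramble mean, for EMX2 with EMX2OS, PAX6 with ELP4 and NKX2-1 with NKX2-1-AS1; scr, sh1 and sh2 are scramble, shRNA1 and shRNA2, followed by the replicate. EMX2OS lies close to EMX2 in each library, while ELP4 lies above PAX6 in all 4 hairpin libraries.

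The genes with the most similar profile were sought among protein-coding genes that averaged 5 FPKM or more, for the 3 tested genes with the largest range of group means. Likeness was the root mean square difference of centred log2(FPKM + 1) values over the 6 libraries. OTX1 and PAX6 averaged 1.41 and 2.64 FPKM, and this scale understates changes of low genes. Their nearest genes can therefore differ from them in percent change. Nearest to OTX1 were SPARC, a matrix glycoprotein gene (0.0704), SF3A3, a splicing factor gene (0.0819) and TMA7 (0.0822). Nearest to PAX6 were PTMA (0.0338) and TMEM248 (0.0366). EMX2 had TMSB15A (0.0229), GPC4, a heparan sulfate proteoglycan gene (0.0287) and NCAPD2, a condensin subunit gene (0.0302) nearest to it. None of these genes passed in the knockdown comparison (limma adjusted p from 0.0855 to 0.311).

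Of 15 hem and roof plate factors, 6 were above the filter. With limma 2 fell and 0 rose, beside 0.0826% of all tested genes called. Their median was -0.58, against -0.03 for all tested genes. RSPO2, an amplifier of Wnt signalling, changed by -1.54 (adjusted p = 0.0208) and WNT8B, a Wnt ligand of the hem, by -0.86 (adjusted p = 0.0208). RSPO3 (-0.72, limma adjusted p = 0.0526) passed with shRNA2 (adjusted p = 0.0393), and RSPO1 stood at -0.42 (adjusted p = 0.115). With voom on reads, 9 of 15 fell and 0 rose, against 1.93% of all genes called in either direction. These included LMX1A, a roof plate homeobox factor that was named after its values were seen, at 1.2 and 1.37 FPKM in scramble and 0.398 to 0.453 FPKM with the hairpins.

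Of 16 dorsal partners, 11 were above the filter, 1 fell and 0 rose (limma), with a median of -0.03. Among all tested genes 0.0826% were called. NR2F1, a nuclear receptor that gives the cortex its caudal areas, fell by 0.87 on the log2 scale (limma adjusted p = 0.0252). NR2F2, its paralog, was at -0.81 (adjusted p = 0.0526) and passed with shRNA2 (adjusted p = 0.0358). TBR1, of early cortical neurons, was at 0.26 (limma adjusted p = 0.175) and DMRTA1 at 0.28 (adjusted p = 0.221). With voom on reads 6 of the 16 fell and 1, TBR1, rose (1.93% of all genes were called). Among those that fell, and named after their values were seen, were EOMES (-0.94, voom adjusted p = 0.028) and DMRT3 and DMRTA2, doublesex-type factors of the medial cortex. NEUROG2, also named after its values were seen, passed with shRNA2 (-0.90, voom adjusted p = 0.0131), where 4.06% of all genes did. With shRNA1 NEUROG2 was at -0.02 (voom adjusted p = 0.987). DMRTA2 stood at 1.28 and 1.40 FPKM in scramble, against 0.606 and 0.687 under shRNA1 and 0.386 and 0.261 under shRNA2.

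Of 10 rostral and eye field factors, 3 were above the filter and 0 passed with limma. At an unadjusted p under 0.05 there was 1, against 13.8% of all tested genes. With voom on reads 3 of 10 fell and 0 rose, beside 1.93% of all genes called. Among those 3, below the filter and named after their values were seen, were RAX and SIX6, of the eye field. RAX was at 0.391 and 0.640 FPKM in scramble, was listed at 0 in shRNA1 replicate 1, and was at 0.00684 to 0.0161 FPKM in the other hairpin libraries. SIX6 was at 0.369 and 0.595 FPKM in scramble and 0.0135 to 0.0215 FPKM with the hairpins. SIX3, which is expressed in the same field in the embryo, was at 109% of scramble. NR2E1 stood at 7.41 and 8.08 FPKM in scramble and 6.89 to 7.35 in the hairpin libraries, lower without overlap, but did not pass (-0.10, limma adjusted p = 0.492). VAX1 was at 0.002 (adjusted p = 0.994).

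Of 17 ventral forebrain factors, 9 were above the filter and 0 passed with limma, with a median of -0.06. At an unadjusted p under 0.05 there were 2, against 13.8% of all tested genes. DLX5 (-0.19, adjusted p = 0.256), DLX6 (-0.14, adjusted p = 0.286) and DLX2 (-0.13, adjusted p = 0.709) were among those with the smallest p. DLX5 was at 0.07 with shRNA1 and -0.44 with shRNA2, and DLX6 at 0.08 and -0.35. On reads DLX5 and DLX6 passed with shRNA2 (voom adjusted p = 0.0196 and 0.0177), where 4.06% of all genes did. Between the hairpins both also passed (voom adjusted p = 0.0162 and 0.0128), where 3.10% of all genes did. NKX2-2 and NKX2-4 were listed at 0 in most libraries. With voom on reads 1 of 15 fell in the knockdown (1.93% of all genes were called). The 1 was SHH, named after its values were seen, at 0.281 and 0.322 FPKM in scramble and 0.123 to 0.248 FPKM with the hairpins. Of the 22 posterior and spinal factors only TCF7L2 was above the filter (-0.02, limma adjusted p = 0.876). On reads 1 of 12 of them fell and 0 rose in the knockdown (voom, 1.93% of all genes were called). The 1 was BARHL2 (-1.37, voom adjusted p = 0.0249), named after its values were seen. BARHL2 was at 0.607 and 0.458 FPKM in scramble and 0.126 to 0.344 FPKM with the hairpins.

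**Figure D4:**
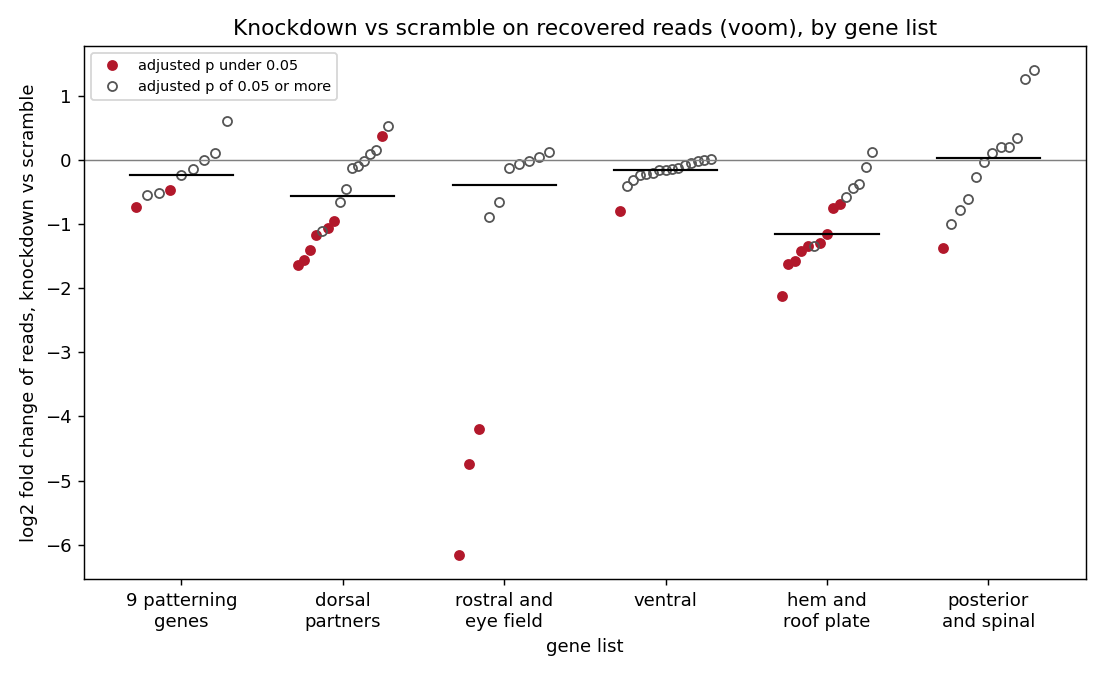
Log2 fold change of recovered reads (voom), knockdown against scramble, for each gene of 6 lists with a mean of at least 10 reads; filled points have an adjusted p under 0.05 and lines are list medians. PAX6 and OTX1 are the filled points of the first list, and the lowest 2 points are RAX and SIX6; the fitted values of RAX and SIX6 rest on 0 to 5 reads per hairpin library.

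Markers of other cell types also differed between the hairpin and scramble libraries. The counts without overlap that follow stand beside 12.6% lower and 5.87% higher among all tested genes, and 7.28% lower and 9.82% higher among genes with a mean of 0.1 to 1 FPKM. The counts also hold DCN, TWIST1, FOLR1, MITF, RCVRN, POU5F1, TDGF1 and ZFP42, with means under 0.1 FPKM, for which no share was computed. The summed level of 8 mesenchymal markers was 6.13 to 6.86 FPKM in scramble, 1.5 to 1.58 with shRNA1 and 0.980 to 1.19 with shRNA2, with 7 of 8 lower without overlap. That of 8 choroid plexus markers, which include TTR, OTX2 and LMX1A, was 20.6 to 22, 13.5 to 13.6 and 16.0 to 16.8 FPKM, with 5 of 8 lower without overlap. Most of that sum is OTX2, whose values are given above. TTR, the transthyretin gene that defines this tissue, was at 6.03 and 6.63 FPKM in scramble, against 0.497 and 0.785 under shRNA1 and 0.0577 and 0.0632 under shRNA2 (-2.48 in the knockdown, limma adjusted p = 0.00761). For 8 markers of the retina and its pigment layer it was 10.8 to 12.7, 10.1 to 10.3 and 8.36 to 8.74 FPKM, with 4 of 8 lower and 1 higher without overlap. The 10 neural progenitor markers, PAX6 among them, summed to 221 to 234, 206 to 206 and 218 to 223 FPKM. Of these, 3 were lower (PAX6, VIM and HES1) and 0 higher without overlap. The 10 neuron markers summed to 440 to 445, 462 to 466 and 399 to 401 FPKM, with 0 lower and 1 higher without overlap. The 8 pluripotency markers summed to 7.61 to 7.74, 8.86 to 8.90 and 16.3 to 16.3 FPKM, with 6 of 8 higher without overlap. Most of that sum is LIN28A, DPPA4 and SALL4. POU5F1, ZFP42 and TDGF1, also among those higher, rest on about 1 to 12, 0 to 7 and 1 to 58 reads per library. NANOG was at 0.0024 to 0.0687 FPKM, and its groups overlapped. In none of these lists was a marker at 0 in every library. The part of these cells in the levels of the 9 genes was not tested, and in bulk RNA fewer cells of a type cannot be told apart from less RNA per cell.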

How the data were processed

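The authors deposited FPKM values, 1 for each library and gene symbol, per the file headers. The submitters' processing notes name featureCounts 2.0.1, SAMtools 1.9, HISAT2 2.1.0 and Trimmomatic 0.39, and the build GRCh38 (hg38). Which annotation was counted, on which strand, and how shared reads were handled is not given in the sources used here. Of 59151 entries, 29 symbols had been turned into dates and 4 were duplicated.

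Library totals were recovered from the steps of low FPKM values on genes with a GENCODE v29 exon length (27071 symbols). Reads came out in whole hundredths, within 0.001 reads, for 41.8% of these genes, among them PAX6, EMX2, OTX1, LHX2, SIX3 and GSX2; for EMX1, LHX9 and NKX2-1 read numbers are approximate.

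The tests used log2(FPKM + 1) of 18162 genes averaging 1 FPKM or more, without further scaling, in limma 3.58.1 (R 4.3.3): all 3 groups in 1 fit, mean-variance trend, Benjamini-Hochberg adjustment over all tested genes, threshold 0.05. The fit was tested on simulated data. The 9 genes and the lists were chosen with earlier results of these data known. All 9 genes are named; of other lists, genes past the threshold and up to 4 with the smallest p; some genes and 1 promoter stretch that these rules give are not reported here. The voom test on recovered reads (18959 genes with a mean of at least 10 reads) was added after the data were seen. Alternatives were another pseudocount, filters, scaling, library weights, a replicate block, protein-coding genes alone, fits of 2 groups, and leaving out each library. Gene positions are from RefSeq (GRCh38.p14, 1-based). Python 3.11.15, numpy 2.4.6, pandas 2.3.3 and matplotlib 3.10.9 were used.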

Additional observations from a re-analysis of the deposited data

How the results depend on the processing

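With 2 libraries per group and scramble replicates that spread most, the counts of genes past the threshold depend strongly on the setting; where they moved, the cause was not tested. Counts are given in the order knockdown, shRNA1, shRNA2 (each against scramble) and shRNA2 against shRNA1; with the reported settings they were 15, 6, 114 and 0 genes and 0 of the 6 tested genes of the 9 in each. Without a filter they were 0 in the first 3. With a minimum of 5 FPKM they were 35, 3, 261 and 46. Quantile normalization gave 30 in the knockdown (12 higher, 18 lower) and 71 with shRNA2 (37 higher, 34 lower, against 34 and 80 as reported). Median of ratios scaling gave 28 in the knockdown (10 higher, 18 lower; 1 and 14 as reported), and with shRNA2 43 higher and 48 lower. A pseudocount of 0.1 gave 2 with shRNA1. Library weights gave 3, 3, 5 and 2343, with 1 of the 9 genes (EMX2) between the hairpins. Protein-coding genes alone gave 134, 24, 421 and 269, with 2 of the 9 genes in the knockdown and 2 with shRNA2. Fits of the 2 groups compared gave 0 with shRNA1, 1 with shRNA2 and 957 between the hairpins.

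The replicate numbers did not pair the libraries (correlations of deviations -0.00768, -0.15 and 0.0122); with the replicate block the counts were 1, 0 and 0 against scramble, and 0 of the 9 genes passed.

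Leaving out each library gave 0 to 507, 0 to 1, 0 to 2418 and 0 to 1029 genes, and 0 to 0, 0 to 0, 0 to 1 and 0 to 0 of the 9 genes; the 1 was PAX6, without scramble replicate 1 (adjusted p = 0.0415). The lone library is then assumed to vary like the other groups.

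Of the settings added after the data were seen, voom on reads gave 366, 101, 770 and 588 genes, with 2, 1, 2 and 0 of the 9. Without scramble replicate 1 it gave 4425, 2389, 5851 and 5055 genes, with 4, 3, 3 and 4 of the 9. Without scramble replicate 2 it gave 2165, 2052, 3009 and 5036, with 3, 5, 3 and 4 of the 9. With library weights it gave 197, 103, 632 and 4350, with 2, 0, 2 and 2 of the 9.

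Signs turned only for values near 0. The knockdown value of LHX2 reached 0.056 without scramble replicate 2, and became -0.054 without scramble replicate 1, -0.0026 without shRNA1 replicate 1, -0.035 without shRNA2 replicate 1, -0.0051 with voom on reads, -0.058 with voom without scramble replicate 1 and -0.0076 with voom and library weights. The shRNA2 value of SIX3 reached 0.10 without scramble replicate 2, and became -0.079 without scramble replicate 1, -0.052 without shRNA2 replicate 1, -0.084 with voom without scramble replicate 1 and -0.0018 with voom and library weights. GSX2 with shRNA2 was 0.00068 after quantile normalization, and OTX1 between the hairpins was -0.014 without shRNA1 replicate 2 and 0.13 without shRNA1 replicate 1. Depth limits EMX1, LHX9 and NKX2-1, with at most 196 reads per library.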
